A study of Mus musculus with 18 samples.

Results

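The 10 genes described here encode parts of the cyclic AMP (cAMP) pathway that the receptors for prostaglandin E2 (PGE2) feed into: the adenylyl cyclases *Adcy3*, *Adcy7* and *Adcy9*, the phosphodiesterases *Pde4a*, *Pde4b* and *Pde4d*, the protein kinase A (PKA) subunits *Prkaca* and *Prkar1a*, and the transcription factors *Crem* and *Creb1*. They were taken by symbol from a table of 62197 annotated genes, and all 10 were found. cPLA_2_, encoded by *Pla2g4a*, releases arachidonic acid from membranes, and cyclooxygenases turn this fatty acid into the precursor of PGE2. The PGE2 receptors EP2 (*Ptger2*) and EP4 (*Ptger4*) act through the stimulatory G protein on adenylyl cyclases, which make cAMP; cAMP frees the catalytic subunits of PKA from the regulatory ones, and PKA phosphorylates CREB, which binds cAMP response elements (CREs) in the promoters of its target genes. Phosphodiesterases break cAMP down, and in dendritic cells (DCs) this pathway is known for its effects on maturation and cytokine output.

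The study asked how squeezing immature DCs changes their gene expression and whether cPLA_2_ is needed for it, and profiled poly(A) RNA from mouse bone marrow DCs by strand-specific sequencing. Bone marrow cells of young adult mice were cultured for 10 days with granulocyte-macrophage colony-stimulating factor from transfected J558 cells. Mice with a floxed *Pla2g4a* gene were crossed to mice carrying Cre under the *Itgax* (CD11c) promoter, so that deletion is limited to cells in which this promoter is active and cells of the culture without it keep the gene. Library kits of 2 kinds were used, and which library was made with which kit is not given in the sources used here.

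The 18 libraries form 6 groups of 3. Nonconfined cPLA_2_ WT and nonconfined cPLA_2_ KO DCs were collected at the end of the culture with no treatment. Confined cPLA_2_ WT and confined cPLA_2_ KO DCs were held under a ceiling at a height of 3 µm and collected at 4 h. LPS cPLA_2_ WT and LPS cPLA_2_ KO DCs received 100 ng ml-1 of lipopolysaccharide (LPS) for 30 min, were washed and stayed nonconfined until the next day, so confinement and LPS were read at different times. The study used male or female mice without giving the sex of the marrow donors, and the labels tie no library to an animal, so the p-values below measure the spread between these libraries. The comparisons of confinement and of LPS with nonconfined cells share the nonconfined libraries.

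Libraries held between 33027230 and 61300021 reads in genes, with a median of 40950398. Values are normalized counts, that is, reads per gene divided by a size factor for each library, not scaled for gene length. Tests cover the 17875 genes that reached 10 normalized counts in 3 or more libraries, all 10 members among them. Changes are on the scale of log2(normalized count + 1), with the standard error (SE) from a limma model of all 18 libraries, and "called" means a Benjamini-Hochberg adjusted p under 0.05 over the 17875 genes. "Rose" and "fell" are used of called changes.

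*Pla2g4a* (chr1:149705372-149837041, minus strand, GRCm39), the deleted gene, was read as 697, 686 and 770.4 normalized counts in nonconfined cPLA_2_ WT, 548, 542 and 533 in nonconfined cPLA_2_ KO, 1369, 1430.3 and 1321 in confined cPLA_2_ WT and 923, 871 and 919.5 in confined cPLA_2_ KO libraries. Reads were thus fewer in every knockout library of these groups but not absent, with a log2 difference of −0.41 between the genotypes in nonconfined cells (adjusted p = 0.000191). Counts over the whole gene do not show the deleted part on its own. In the LPS groups the values were 1005, 969 and 967 in libraries labelled cPLA_2_ WT and 1065, 1032 and 1028 in libraries labelled cPLA_2_ KO, so there the label did not go with fewer *Pla2g4a* reads.

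The Y-linked gene *Ddx3y* separated the genotypes outside the LPS groups. It was between 0 and 3.05 in the 6 nonconfined and confined cPLA_2_ WT libraries and between 874 and 1036 in the 6 matching cPLA_2_ KO libraries, so the sex of the donors and genotype cannot be told apart in the comparisons of nonconfined and of confined DCs. *Xist*, expressed in female cells, was at 27953, 33681 and 30681 in nonconfined cPLA_2_ WT and 12153, 19081 and 14328 in nonconfined cPLA_2_ KO libraries, lower in each of the latter but present, and between 16450.2 and 33482 in the other 12 libraries. In the LPS groups *Ddx3y* was 1271, 0 and 662 in the libraries labelled cPLA_2_ WT and 2.12, 1476 and 783 in those labelled cPLA_2_ KO. By this measure 3 of the 6 LPS libraries, replicates 1 and 3 labelled cPLA_2_ WT and replicate 1 labelled cPLA_2_ KO, went against their label. Replicate 3 labelled cPLA_2_ KO was on the side of its label but below the range of the nonconfined cPLA_2_ KO libraries. The LPS libraries are therefore called by their label only, the main LPS comparison pools the labels, and the LPS change of each member is also given without the 3 libraries that go against their label, which leaves 1 library labelled cPLA_2_ WT, whose spread is taken to be that of the other groups, and 2 labelled cPLA_2_ KO.

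The libraries carried DC markers, with all 8 of the list detected in each group and *Cd74* (the invariant chain of MHC class II) the one with the most normalized counts, at 189379 to 335999.6 normalized counts. Markers of other myeloid cells were present too, although the semiadherent fraction was collected, a step meant to leave out nonadherent granulocytes and the more adherent macrophages. The 5 eosinophil markers, led in normalized counts by *Prg2*, summed to 30402, 30202 and 30168 in nonconfined cPLA_2_ WT, 74115, 68944 and 70901 in nonconfined cPLA_2_ KO, 8313, 7905 and 7825 in confined cPLA_2_ WT and 19690, 19296 and 20278 in confined cPLA_2_ KO libraries. In the LPS libraries the sums were 43143, 25150 and 34236 by the label cPLA_2_ WT and 24999, 42981 and 34932 by the label cPLA_2_ KO, so they were lowest in the 2 libraries with the least *Ddx3y* and highest in the 2 with the most. The 8 neutrophil markers, led by *S100a9*, summed to 238752, 243828 and 242192 in nonconfined cPLA_2_ WT, 369490, 332192 and 357354 in nonconfined cPLA_2_ KO, 154013, 146804 and 144581 in confined cPLA_2_ WT and 333025, 346015 and 329985 in confined cPLA_2_ KO libraries, and to between 276705 and 312354 in the LPS libraries. Both sums were thus higher in every cPLA_2_ KO library than in the cPLA_2_ WT libraries under the same condition outside LPS, and no library was at 0 for either. Of the 5 eosinophil markers, 4 were called higher and 1, *Siglecf*, lower in cPLA_2_ KO DCs, both nonconfined and confined. Of the 8 neutrophil markers, 6 were called higher in nonconfined and 8 in confined cPLA_2_ KO DCs. Of all genes tested, 8.88% were called in either direction between the nonconfined genotypes. Between the confined genotypes 18.8% were higher and 20.6% lower in cPLA_2_ KO DCs.

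Of the 8 neutrophil markers, 8 fell with confinement in cPLA_2_ WT DCs and 3 in cPLA_2_ KO DCs (5 under same-total or TMM scaling), and the interaction was called for 8. Of all genes, 28.2% rose and 28.4% fell with confinement in cPLA_2_ WT DCs, and 22.8% and 23.4% in cPLA_2_ KO DCs. The interaction was positive for 10.2% and negative for 15.6%, and 37.2% rose and 34.3% fell with LPS. Of the 5 eosinophil markers, all but *Siglecf* fell in both genotypes. Of the 8 DC markers, 7 fell and 1, *Irf4*, rose in cPLA_2_ WT DCs, 8 fell in cPLA_2_ KO DCs, and 7 rose with LPS, of which 6 turned lower under same-total scaling, a scaling under which *Irf4* was not called higher with confinement. The interaction was called and negative for 5 DC markers (median of the 8, −0.39). In confined cPLA_2_ KO DCs, 3 DC markers were lower and 0 higher than in confined cPLA_2_ WT DCs, beside 20.6% and 18.8% of all genes. The 5 markers of mast cells and basophils, led in normalized counts by *Cpa3*, summed to 3397 to 3518 in confined cPLA_2_ WT, 5348 to 5527 in confined cPLA_2_ KO, 6724 to 7014 in nonconfined cPLA_2_ WT and 9837 to 10295 in nonconfined cPLA_2_ KO libraries. The 7 markers of macrophages and monocytes, led in normalized counts by *Csf1r* (per kilobase *Cd68* was above it), summed to 53237 to 71298 across all libraries. The 6 markers of T, B and NK cells summed to 21 to 106, with *Ncr1* below 1 on average and 3 of the 4 tested lower with confinement in cPLA_2_ WT DCs, and the 4 fibroblast markers to 112 to 321. In these bulk libraries, fewer cells of a type and less RNA per cell cannot be told apart, and the part of the other cell types in the results on the cAMP genes was not tested.

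Per kilobase of merged exons, *Prkaca* was the most abundant member in nonconfined cPLA_2_ WT DCs, at 1332 ± 23.2 normalized counts per kb (SD, n = 3), followed by *Adcy7* at 829 ± 53.2 and *Prkar1a* at 754 ± 18.2. The other 7 lay far below, with *Pde4b* at 54.4 ± 5.33, *Creb1* at 43.9 ± 1.16, *Pde4a* at 41.6 ± 5.12, *Crem* at 13.0 ± 1.04, *Pde4d* at 7.81 ± 0.983, *Adcy9* at 6.62 ± 0.598 and *Adcy3* at 2.04 ± 0.159. Of neighbours in this order, *Creb1* and *Pde4a*, and *Pde4d* and *Adcy9*, did not differ beyond their spread. *Adcy3* rests on 22 to 180 reads per library. In confined cPLA_2_ WT DCs the top of the order was *Prkaca* at 1169 ± 69.1 and *Prkar1a* at 1024 ± 27.0 per kb, then *Adcy7* at 592 ± 14.7, and *Pde4b* at 379 ± 10.5 and *Crem* at 95.5 ± 5.71 stood above *Creb1* at 58.7 ± 1.97.

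With confinement, all 10 members changed in cPLA_2_ WT DCs. *Adcy3*, *Pde4b*, *Pde4d*, *Prkar1a*, *Crem* and *Creb1* rose, and *Adcy7*, *Adcy9*, *Pde4a* and *Prkaca* fell; of all genes tested, 28.2% rose and 28.4% fell. A log2 change above 1 in size was reached by *Adcy3*, *Pde4b*, *Pde4d* and *Crem*, 4 of 10, against 19.0% of all genes. The median log2 change of the members was 0.43, and that of all genes tested −0.01. When each library was scaled to the same total instead, the median of all genes was −0.23 and the same directions were found for all 10 members, so that the 4 falls were larger and the 6 rises smaller on that scale.

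In confined cPLA_2_ KO DCs, 6 members rose (*Adcy3*, *Adcy7*, *Pde4b*, *Pde4d*, *Prkar1a* and *Crem*), and of all genes 22.8% rose and 23.4% fell. The other 4, *Adcy9*, *Pde4a*, *Prkaca* and *Creb1*, were not called, but *Pde4a* was called lower by edgeR and by DESeq2 (adjusted p = 0.0408 and 0.0443), under both other scalings, with a filter at 100 normalized counts and with the 2 groups fitted alone. *Adcy3*, *Pde4d* and *Crem* passed a log2 change of 1, 3 of 10, against 12.0% of all genes, and the median was 0.30 beside 0.01 over all genes. The interaction, the change in cPLA_2_ KO minus that in cPLA_2_ WT DCs, was called for 7 members. It was positive for *Adcy7*, *Adcy9* and *Pde4a* and negative for *Pde4b*, *Prkar1a*, *Crem* and *Creb1*, against 10.2% and 15.6% of all genes, with medians of −0.02 for the members and 0.05 for all genes; with libraries scaled to the same total the median of all genes was 0.24 and the interaction of *Prkar1a* turned to 0.01.

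Between the genotypes, nonconfined DCs differed in 1 member, *Adcy7*, against 8.88% of all genes, whereas confined DCs differed in 9. In confined cPLA_2_ KO DCs *Adcy3*, *Adcy7*, *Adcy9* and *Pde4a* were higher and *Pde4b*, *Pde4d*, *Prkar1a*, *Crem* and *Creb1* lower than in confined cPLA_2_ WT DCs, against 18.8% higher and 20.6% lower of all genes. Scaling to the same total moved the median of all genes in the confined comparison from 0.04 to 0.19. *Creb1*, lower by 0.22 in nonconfined cPLA_2_ KO DCs (adjusted p = 0.0688), was called there with a filter at 100 normalized counts (0.0491), under same-total scaling (0.0363), by DESeq2 (0.0470) and without nonconfined cPLA_2_ KO replicate 2 (0.0127). With the same total in the confined comparison, *Pde4d* (−0.29, adjusted p = 0.120) and *Prkar1a* (−0.02, adjusted p = 0.775) were no longer called and *Prkaca* was called higher (0.23, adjusted p = 0.000899).

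**Figure D1:**
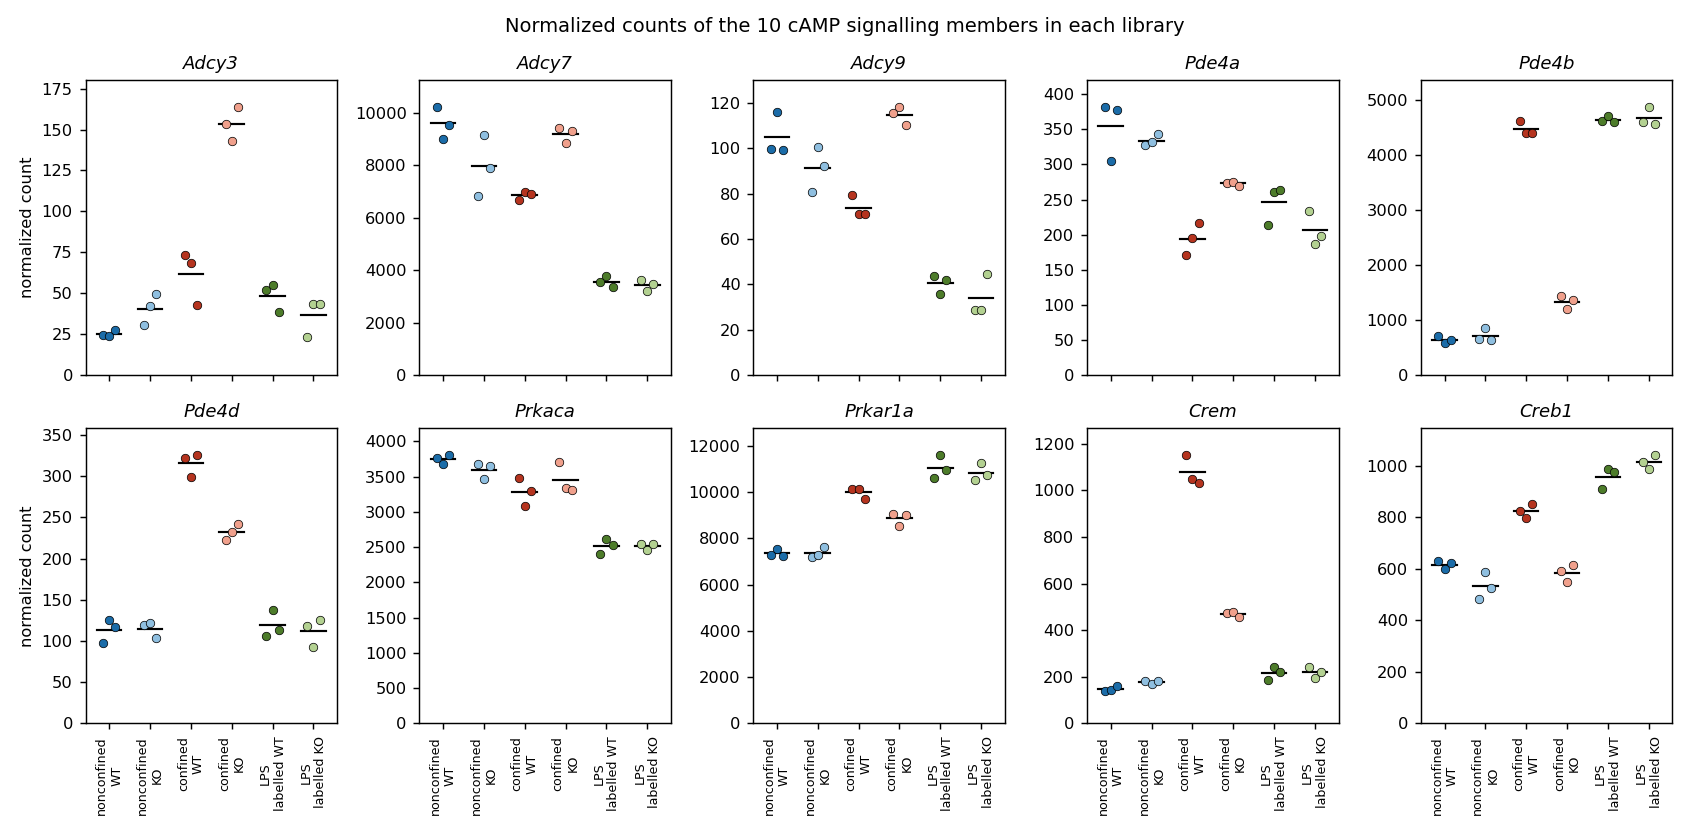
Normalized counts (linear axes from 0) of the 10 members in each of the 18 libraries, 1 panel per gene and 1 column per group; points are libraries and bars are means of 3. *Crem* stands at 1033 to 1151 in confined cPLA_2_ WT libraries and at 457 to 479 in confined cPLA_2_ KO libraries, above all others, and *Pde4b* stands at 4397 or more in confined cPLA_2_ WT and all LPS libraries.

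Upstream of the members, the receptor genes moved in both conditions. *Ptger2*, which encodes EP2, was at 412, 361 and 423.5 normalized counts in nonconfined cPLA_2_ WT, 3896, 3567 and 3604 in confined cPLA_2_ WT, 484, 525 and 467 in nonconfined cPLA_2_ KO and 1874, 1994 and 1863 in confined cPLA_2_ KO libraries. The 4 groups did not overlap, and the confined cPLA_2_ WT libraries were the highest. *Ptger2* rose by 3.21 in cPLA_2_ WT DCs (SE 0.08, adjusted p = 1.02e-18) and, in cPLA_2_ KO DCs, by 1.96 (SE 0.08), with an interaction of −1.25 (adjusted p = 1.07e-08). *Ptger4*, which encodes EP4, rose by 0.50 in cPLA_2_ WT and fell by 0.34 in cPLA_2_ KO DCs (adjusted p = 0.000835), with values of 958, 952 and 876.5 in the first and 539.5, 539.6 and 539.5 in the second confined group, and the interaction was −0.84 (adjusted p = 2.93e-06). In the LPS libraries *Ptger4* lay between 2732 and 2938, above every other library, and *Ptger2* between 1164 and 1393.

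Adenylyl cyclases make cAMP from ATP. *Adcy7* (chr8:88999031-89056590), the most abundant of the 3 member cyclases, was at 10229.6, 9004 and 9533 in nonconfined and 6656, 6980.1 and 6909 in confined cPLA_2_ WT libraries, and at 6841, 9131 and 7905 in nonconfined and 9427.5, 8860.2 and 9282.5 in confined cPLA_2_ KO libraries. Confined cPLA_2_ WT libraries were all below nonconfined ones, while the cPLA_2_ KO groups overlapped. *Adcy7* fell by 0.48 in cPLA_2_ WT DCs (SE 0.08, adjusted p = 1.30e-05) and rose by 0.22 in cPLA_2_ KO DCs (SE 0.08, adjusted p = 0.0244), and the interaction was 0.70 (adjusted p = 3.44e-05). The rise in cPLA_2_ KO DCs was not called without nonconfined cPLA_2_ KO replicate 1 (adjusted p = 0.209) or 3 (0.0566), without confined cPLA_2_ KO replicate 1 (0.0739) or 3 (0.0646), under same-total scaling (0.0780) or TMM scaling (0.0715), or with the 2 groups fitted alone (0.0752). The lower *Adcy7* of nonconfined cPLA_2_ KO than cPLA_2_ WT DCs, a difference of −0.28 (adjusted p = 0.0265), was not called without replicate 1 (0.124) or 3 (0.0770) of nonconfined cPLA_2_ WT or replicate 1 (0.189) or 3 (0.0794) of nonconfined cPLA_2_ KO libraries, with no filter on low values (0.0505) or with the 2 groups fitted alone (0.139).

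With LPS, *Adcy7* fell to 3534, 3792 and 3357 in libraries labelled cPLA_2_ WT and 3625.5, 3193.5 and 3459.5 in libraries labelled cPLA_2_ KO. These 6 values lay below every other library, with a pooled log2 change of −1.32 (SE 0.05, adjusted p = 2.10e-15), and of −1.29 without the 3 libraries that go against their label. *Adcy9* (chr16:4102750-4238363), a cyclase of low level here, was at 71.1 to 79.2 in confined cPLA_2_ WT libraries, below the 99.3 to 116 of the nonconfined ones, and at 110 to 118 in confined beside 80.7 to 100.5 in nonconfined cPLA_2_ KO libraries. It fell by 0.50 in cPLA_2_ WT DCs (SE 0.19, adjusted p = 0.0304), and its change in cPLA_2_ KO DCs was 0.33 (95% interval −0.06 to 0.73), with an interaction of 0.83 (adjusted p = 0.0263). The call in cPLA_2_ WT DCs was lost without nonconfined replicate 2 (adjusted p = 0.108), without confined replicate 2 (0.0752) or 3 (0.0748), and with no filter on low values (0.0503). The interaction was lost without replicate 2 of nonconfined cPLA_2_ WT (0.0690), replicate 1 of nonconfined cPLA_2_ KO (0.0672), replicate 2 (0.0514) or 3 (0.0516) of confined cPLA_2_ WT or replicate 2 of confined cPLA_2_ KO libraries (0.0510).

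With LPS, *Adcy9* fell by 1.39 (SE 0.14, adjusted p = 5.99e-09) to between 28.6 and 44.4, below all other libraries, and by 1.43 without the 3 libraries. *Adcy3* (chr12:4183397-4263524), a cyclase best known from olfactory signalling, was at 153, 143 and 164 in confined cPLA_2_ KO, 30.6, 41.9 and 49.5 in nonconfined cPLA_2_ KO, 73.4, 68.6 and 42.6 in confined cPLA_2_ WT and 24.4, 23.9 and 27.5 in nonconfined cPLA_2_ WT libraries. The confined cPLA_2_ KO libraries were above all others, and the confined cPLA_2_ WT libraries were above their nonconfined ones. *Adcy3* rose by 1.91 in cPLA_2_ KO (SE 0.27, adjusted p = 5.92e-06) and, in cPLA_2_ WT DCs, by 1.22 (SE 0.27, adjusted p = 0.000619). The interaction of 0.70 was not called (SE 0.38, adjusted p = 0.201). With LPS the pooled change of *Adcy3* was 0.36 (95% interval −0.04 to 0.76). By label it rose by 0.89 in libraries labelled cPLA_2_ WT (adjusted p = 0.00679) and changed by −0.17 in those labelled cPLA_2_ KO (adjusted p = 0.602). The pooled change was 0.61 without the 3 libraries and was called at 0.51 without LPS replicate 1 labelled cPLA_2_ KO (adjusted p = 0.0176), while same-total scaling turned it to −0.12.

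The type 4 phosphodiesterases break down cAMP and are the main cAMP-degrading family of leukocytes. *Pde4b* (chr4:101944936-102464472) was at 704, 578 and 646 in nonconfined and 4619, 4397 and 4409.9 in confined cPLA_2_ WT libraries, and at 649.5, 855.5 and 633 in nonconfined and 1436, 1201 and 1357 in confined cPLA_2_ KO libraries. The confined groups were above the nonconfined groups in both genotypes with no overlap, and confined cPLA_2_ KO libraries were all below confined cPLA_2_ WT libraries. *Pde4b* rose 6.98-fold in cPLA_2_ WT DCs (log2 change 2.80, SE 0.09, adjusted p = 1.39e-16) and 1.88-fold in cPLA_2_ KO DCs (0.91, SE 0.09, adjusted p = 4.28e-08), and the interaction was −1.89 (SE 0.13, adjusted p = 1.47e-10).

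With LPS, *Pde4b* reached 4614, 4702 and 4596.5 in libraries labelled cPLA_2_ WT and 4600.3, 4881 and 4556 in those labelled cPLA_2_ KO. These values overlapped those of confined cPLA_2_ WT DCs at the upper end of the latter, and the difference between confined cPLA_2_ WT and LPS DCs was −0.06 (95% interval −0.22 to 0.11), or 0.23 with libraries scaled to the same total (adjusted p = 0.0156). The rise with LPS was 6.92-fold (log2 change 2.79, SE 0.06, adjusted p = 7.66e-20), and 2.81 on the log2 scale without the 3 libraries.

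*Pde4d* (chr13:108996595-110092503) was at 97.5, 125 and 117 in nonconfined and 322, 299 and 326 in confined cPLA_2_ WT libraries, and at 119, 122 and 104 in nonconfined and 222, 232.5 and 241.5 in confined cPLA_2_ KO libraries. Confined libraries were above all others in both genotypes, and those of cPLA_2_ WT DCs were the highest. It rose by 1.48 in cPLA_2_ WT (SE 0.14, adjusted p = 1.56e-08) and, in cPLA_2_ KO DCs, by 1.01 (SE 0.14, adjusted p = 6.62e-06), and the interaction of −0.47 was not called (95% interval −0.89 to −0.04, adjusted p = 0.102). Between the confined genotypes the difference was −0.44 (adjusted p = 0.0189), not called without confined cPLA_2_ WT replicate 1 (0.0537) or 3 (0.0597) or confined cPLA_2_ KO replicate 1 (0.0616). In the LPS libraries *Pde4d* lay between 92.7 and 138, overlapping the nonconfined ones, with a pooled change of 0.01 (95% interval −0.20 to 0.23) that turned to −0.48 under same-total scaling (adjusted p = 0.000330) and was 0.10 without the 3 libraries and −0.01 when replicate 3 labelled cPLA_2_ KO was left out as well. Confined cPLA_2_ WT DCs were above LPS DCs by 1.45 (SE 0.13, adjusted p = 2.64e-09).

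*Pde4a* (chr9:21077008-21124548) moved the other way. It was at 382.5, 304 and 377 in nonconfined and 171, 195 and 217 in confined cPLA_2_ WT libraries, and at 327.5, 331 and 344 in nonconfined and 274, 275 and 269.7 in confined cPLA_2_ KO libraries. Confined libraries were below nonconfined ones in both genotypes. The fall in cPLA_2_ WT DCs was called, with a log2 change of −0.87 (SE 0.12, adjusted p = 2.66e-06), and the change in cPLA_2_ KO DCs was −0.29 (95% interval −0.54 to −0.04, adjusted p = 0.0548). The interaction was 0.57 (adjusted p = 0.0159), not called without confined cPLA_2_ WT replicate 1 (0.0502). With LPS *Pde4a* fell by 0.61 (SE 0.09, adjusted p = 1.46e-06), to between 187 and 264, by 1.11 under same-total scaling and by 0.61 without the 3 libraries.

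PKA consists of catalytic subunits held inactive by regulatory subunits until cAMP binds. *Prkar1a* (chr11:109539849-109560489), a regulatory subunit, was at 7259, 7553 and 7233.5 in nonconfined and 10144, 10130.5 and 9682 in confined cPLA_2_ WT libraries, and at 7187, 7279 and 7639 in nonconfined and 9056, 8527.5 and 8999 in confined cPLA_2_ KO libraries. It was higher in each confined group than in any nonconfined library. *Prkar1a* rose by 0.44 in cPLA_2_ WT (SE 0.04, adjusted p = 1.99e-08; 0.22 under same-total scaling) and, in cPLA_2_ KO DCs, by 0.27 (SE 0.04, adjusted p = 3.93e-05). Its interaction of −0.18 (adjusted p = 0.0414) was not called with no filter on low values (0.0733), under TMM scaling (0.0649), with a replicate block (0.0513) or on leaving out replicate 1 (0.0832) or 3 (0.0921) of nonconfined cPLA_2_ WT, 3 (0.115) of nonconfined cPLA_2_ KO, 1 (0.0866) or 2 (0.0852) of confined cPLA_2_ WT or 2 (0.105) or 3 (0.0525) of confined cPLA_2_ KO libraries. With LPS it rose by 0.57 (SE 0.03, adjusted p = 3.24e-13), to between 10497 and 11594, above all other libraries, but by 0.07 under same-total scaling (adjusted p = 0.0339) and by 0.62 without the 3 libraries.

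*Prkaca* (chr8:84699607-84723079), encodes the main catalytic subunit. It lay between 3678 and 3807 in nonconfined and between 3089 and 3477 in confined cPLA_2_ WT libraries, with a fall of 0.19 (SE 0.05, adjusted p = 0.00413) that was 0.41 under same-total scaling. The cPLA_2_ KO groups overlapped, with a change of −0.06 (95% interval −0.17 to 0.05), and the interaction of 0.13 was not called (95% interval −0.02 to 0.29) except under same-total scaling (0.32, adjusted p = 0.00140). The LPS libraries, at 2408 to 2611, were below all others, with a fall of 0.54 (SE 0.04, adjusted p = 1.76e-11), of 1.04 under same-total scaling and of 0.52 without the 3 libraries.

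Of the transcription factors, *Crem* (chr18:3266354-3337630, minus strand) encodes both activators and the repressor ICER, whose promoter is itself driven by cAMP. It was at 139, 142 and 160.2 in nonconfined and 1151, 1047 and 1033 in confined cPLA_2_ WT libraries, and at 181, 169 and 181.5 in nonconfined and 471.5, 479 and 457 in confined cPLA_2_ KO libraries. The confined cPLA_2_ WT libraries were the highest, the confined cPLA_2_ KO libraries came next, and no nonconfined library overlapped either. *Crem* rose 7.30-fold in cPLA_2_ WT DCs (log2 change 2.87, SE 0.11, adjusted p = 1.77e-15) and 2.64-fold in cPLA_2_ KO DCs (1.40, SE 0.11, adjusted p = 7.62e-10). The interaction was −1.47 (SE 0.15, adjusted p = 1.38e-07), and between the confined genotypes the difference was −1.20 (adjusted p = 8.47e-09). Gene counts do not separate the activator and repressor transcripts.

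In the LPS libraries *Crem* was at 187, 242 and 221 by the label cPLA_2_ WT and 243, 194.5 and 219.6 by the label cPLA_2_ KO. All 6 were above the nonconfined libraries and below every confined one, and the pooled rise of 0.43 (SE 0.08, adjusted p = 3.50e-05; 0.47 without the 3 libraries) turned to −0.07 when each library was scaled to the same total (adjusted p = 0.437). Confined cPLA_2_ WT DCs were 4.94-fold above LPS DCs (log2 difference 2.31, SE 0.09, adjusted p = 1.02e-14).

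*Creb1* (chr1:64571963-64643706), the founding CRE-binding factor, was at 629, 599 and 623 in nonconfined and 825, 797.5 and 853 in confined cPLA_2_ WT libraries, and at 484, 586.5 and 528 in nonconfined and 592, 549 and 616 in confined cPLA_2_ KO libraries. Confined cPLA_2_ WT libraries were above all of these, and the cPLA_2_ KO groups overlapped. *Creb1* rose by 0.42 in cPLA_2_ WT DCs (SE 0.07, adjusted p = 3.76e-05; 0.19 under same-total scaling), and its change in cPLA_2_ KO DCs was 0.14 (95% interval −0.01 to 0.29), called at 0.21 without nonconfined cPLA_2_ KO replicate 2 (adjusted p = 0.0223). The interaction of −0.28 was near the threshold (adjusted p = 0.0482). It was called on leaving out replicate 1 of nonconfined or replicate 3 of confined cPLA_2_ KO libraries and lost on leaving out each of the other 10 (adjusted p between 0.0515 and 0.126), under both other scalings (0.530 with the same total and 0.0549 with TMM), with no filter on low values (0.0676), with only the compared groups fitted (0.0615) and with a replicate block (0.0583). With LPS *Creb1* reached 910 to 1043, the highest of all libraries, a rise of 0.78 (SE 0.05, adjusted p = 6.92e-12), of 0.29 under same-total scaling and of 0.81 without the 3 libraries.

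**Figure D2:**
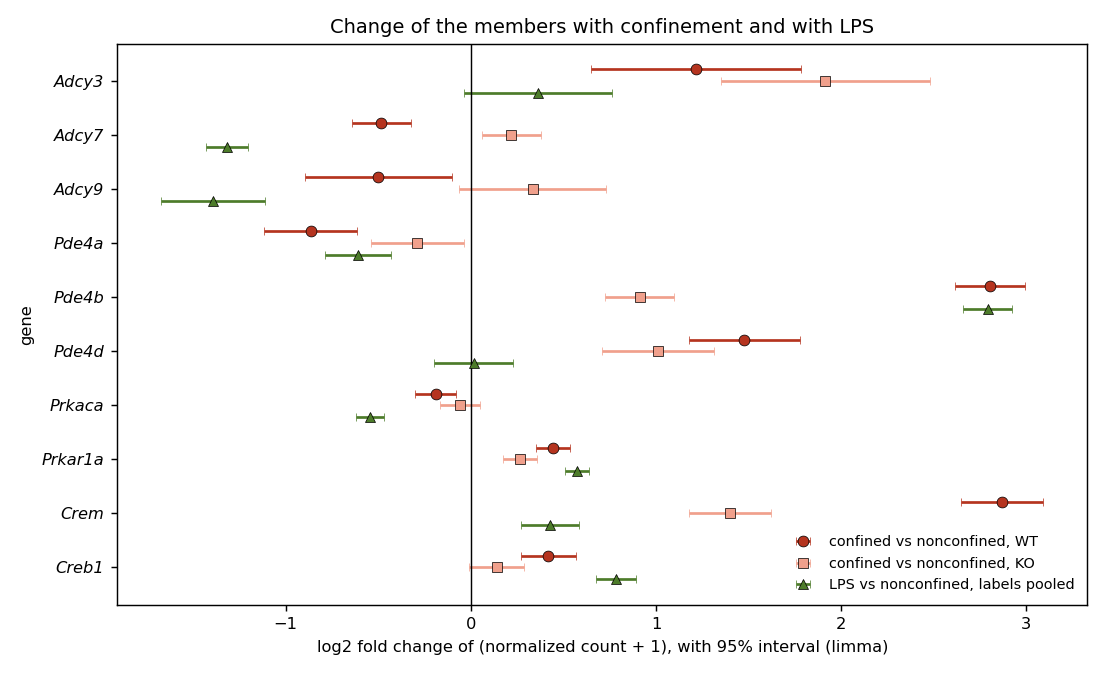
Log2 change of each member with its 95% interval, for confinement in cPLA_2_ WT DCs, confinement in cPLA_2_ KO DCs and LPS with the genotype labels pooled, each against nonconfined libraries; the vertical line marks no change. *Crem* (2.87 and 0.43) and *Pde4d* (1.48 and 0.01) lie apart between confinement in cPLA_2_ WT DCs and LPS, whereas *Pde4b* (2.80 and 2.79) lies at about the same place. With libraries scaled to the same total the LPS value is −0.07 for *Crem* and −0.48 for *Pde4d*. On that scale *Pde4b* is higher in confined cPLA_2_ WT than in LPS DCs by 0.23 (adjusted p = 0.0156).

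With LPS and the labels pooled, 4 members rose (*Pde4b*, *Prkar1a*, *Crem* and *Creb1*, of which *Crem* turned under same-total scaling) and 4 fell (*Adcy7*, *Adcy9*, *Pde4a* and *Prkaca*), against 37.2% and 34.3% of all genes. A log2 change above 1 in size was reached by 3 of 10, *Pde4b*, *Adcy7* and *Adcy9*, against 29.0%. The median of the members was 0.19 beside 0.02 over all genes, and same-total scaling moved the latter to −0.47. By label, 9 members were called in the libraries labelled cPLA_2_ WT (62.8% of all genes) and 8 in those labelled cPLA_2_ KO (63.5%). Between the 2 labels limma called no member and 0% of all genes, with 890 genes and 1 member, *Pde4a*, at an unadjusted p under 0.05, and neither edgeR nor DESeq2 called a gene.

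Confined cPLA_2_ WT DCs were above LPS DCs in *Adcy7* (0.97), *Adcy9* (0.99), *Pde4d* (1.45), *Prkaca* (0.38) and *Crem* (2.31), 5 of 10 against 24.5% of all genes. They were below in *Prkar1a* (−0.13, adjusted p = 0.00632) and *Creb1* (−0.26, adjusted p = 0.00146), 2 of 10 against 29.8%, and both turned under same-total scaling, to 0.16 (adjusted p = 0.00119) and 0.03. That scaling moved the median of all genes from −0.01 to 0.27, and the median of the members was 0.46. *Prkar1a* was not called here without confined cPLA_2_ WT replicate 3 (adjusted p = 0.0514) or by edgeR (0.219). *Adcy3* (0.53, 95% interval 0.04 to 1.02) and *Pde4a* (−0.21, 95% interval −0.43 to 0.00) were not called. *Adcy3* was called without confined cPLA_2_ WT replicate 3 (adjusted p = 0.0164) or without LPS replicate 2 (0.0405) or 3 (0.0426) labelled cPLA_2_ KO, by edgeR (0.63, adjusted p = 0.0191), by DESeq2 (0.60, adjusted p = 0.0216) and under same-total scaling (0.82, adjusted p = 0.00493), and *Pde4a* without confined cPLA_2_ WT replicate 3 (0.0446) or LPS replicate 1 labelled cPLA_2_ WT (0.0390). The fit without the 3 libraries that go against their label leaves 1 library labelled cPLA_2_ WT, so no count of calls is given for it.

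Beyond the members, 71 other genes of the pathway were listed by role and 61 of them were tested. Of these 61, 31 rose and 11 fell with confinement in cPLA_2_ WT DCs (median 0.41), beside 28.2% and 28.4% of all genes, and 31 rose and 12 fell in cPLA_2_ KO DCs (median 0.45), beside 22.8% and 23.4%. With LPS 33 rose and 18 fell (median 0.26), beside 37.2% and 34.3%, but 21 rose and 30 fell under same-total scaling. The interaction was positive for 3 and negative for 18 (median −0.06), beside 10.2% and 15.6% of all genes, and positive for 16 and negative for 16 under same-total scaling. The 10 not tested were *Gnai1*, *Adcy1*, *Adcy2*, *Adcy5*, *Adcy8*, *Adcy10*, *Pde1a*, *Pde3a*, *Pde4c* and *Pkia*, with a highest value in any library of 12.5 normalized counts, in *Pde3a*. Under same-total scaling the direction of the called changes turned for *Gnas* with confinement in cPLA_2_ WT DCs and for *Ptgir*, *Gnas*, *Pde7b*, *Akap9*, *Ep300*, *Sik2* and *Odc1* with LPS; these names were chosen after their values were seen.

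Of 11 receptors and G proteins tested, 7 rose and 3 fell with confinement in cPLA_2_ WT DCs, 4 rose and 5 fell in cPLA_2_ KO DCs, and 5 had a negative interaction. For this and the counts by role below, 28.2% of all genes rose and 28.4% fell in cPLA_2_ WT DCs. In cPLA_2_ KO DCs the shares were 22.8% and 23.4%, and the interaction was positive for 10.2% and negative for 15.6%. The adenosine receptor gene *Adora2a*, also coupled to the stimulatory G protein, was at 552, 542 and 572 in nonconfined and 2727, 2512.5 and 2774 in confined cPLA_2_ WT libraries, and at 727, 678 and 688 in nonconfined and 388.5, 302 and 367 in confined cPLA_2_ KO libraries. Confinement thus went with more reads in each cPLA_2_ WT and fewer in each cPLA_2_ KO library. It rose by 2.26 in the first and fell by 0.99 in the second, with an interaction of −3.25 (SE 0.12, adjusted p = 5.33e-15), and the LPS libraries were the highest at 7535 to 9287. *Ptger3*, which encodes the inhibitory PGE2 receptor EP3, fell by 1.86 in cPLA_2_ WT, by 1.21 in cPLA_2_ KO and by 3.01 in LPS DCs, and its interaction of 0.66 was not called (95% interval −0.06 to 1.37).

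Besides the members, only *Adcy4* and *Adcy6* of the listed cyclases were tested. *Adcy6* was at 1368.5, 1349 and 1403 in nonconfined and 442, 429 and 377 in confined cPLA_2_ WT libraries, and at 1370.4, 1421.5 and 1432.5 in nonconfined and 393, 356 and 432 in confined cPLA_2_ KO libraries. The confined libraries of both genotypes overlapped and were below all nonconfined ones. *Adcy6* fell by 1.73 in cPLA_2_ WT (SE 0.07, adjusted p = 2.01e-14) and, in cPLA_2_ KO DCs, by 1.84, the interaction was −0.12 (95% interval −0.33 to 0.10), and with LPS it rose by 0.84. That rise is smaller under same-total scaling, which moved the median LPS change of all genes from 0.02 to −0.47. *Adcy4*, under 19 normalized counts in every library, was not called in these comparisons.

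The other phosphodiesterases tested numbered 10, of which 5 rose and 1 fell with confinement in cPLA_2_ WT DCs, 5 rose in cPLA_2_ KO DCs, and 1 had a called interaction, which was negative; under same-total scaling 2 interactions were positive and 1 negative. *Pde7b* rose 1.96-fold with confinement in cPLA_2_ WT and 1.67-fold in cPLA_2_ KO DCs, *Pde8a* 1.80-fold and 2.14-fold and *Pde3b* 1.74-fold and 1.67-fold, and all 3 encode enzymes that degrade cAMP. Summed over the 16 listed phosphodiesterases, members included, the libraries held 5192 to 5614 normalized counts in nonconfined and 10827 to 11084 in confined cPLA_2_ WT DCs. The same sum was 5836 to 6626 in nonconfined and 8680 to 9517 in confined cPLA_2_ KO DCs and 9880 to 10672 with LPS. It was thus higher in every confined and LPS library than in any nonconfined one. Of these sums, *Pde4b* alone held 578 to 704 in nonconfined and 4397 to 4619 in confined cPLA_2_ WT libraries. It held 633 to 855.5 in nonconfined and 1201 to 1436 in confined cPLA_2_ KO libraries, and 4556 to 4881 with LPS.

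Among 6 further PKA subunits and inhibitors, 2 rose and 2 fell in cPLA_2_ WT DCs and 1 rose and 2 fell in cPLA_2_ KO DCs, near the shares of all genes. The regulatory subunit gene *Prkar2b* rose by 1.06 and 1.05 with no called interaction (−0.01, 95% interval −0.32 to 0.29), and *Prkar2a* fell by 0.53 and 0.33. *Pkib*, a PKA inhibitor, rose by 0.78 in cPLA_2_ WT DCs and changed by 0.09 (95% interval −0.00 to 0.19) in cPLA_2_ KO DCs, with an interaction of −0.69 (adjusted p = 2.34e-08). The cAMP sensor EPAC acts on the small GTPase Rap1, and of the 4 genes listed for both, 1 rose in cPLA_2_ WT DCs and 3 in cPLA_2_ KO DCs (2 under same-total scaling, where *Rapgef4* was below the filter), with a median interaction of 0.86. *Rap1b* rose by 0.82 and 0.22, with an interaction of −0.61 (adjusted p = 1.12e-07), and *Rap1a* was not called in cPLA_2_ WT DCs (−0.02, 95% interval −0.13 to 0.09). The EPAC genes *Rapgef3* and *Rapgef4*, at 25.9 or less in every library, rose in cPLA_2_ KO DCs (1.48 and 2.16), and their interactions of 1.73 and 2.02 were not called (adjusted p = 0.130 and 0.196).

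Of 9 A-kinase anchoring proteins, which place PKA in the cell, 3 rose and 3 fell in cPLA_2_ WT DCs (3 and 6 under same-total scaling). In cPLA_2_ KO DCs 1 rose and 3 fell. Of all genes 28.2% rose and 28.4% fell in cPLA_2_ WT DCs, so 3 and 3 of 9 lie near that background. *Akap12* rose by 1.95 in cPLA_2_ WT DCs, from 22.9 to 32.4 in nonconfined to 96.6 to 121 in confined libraries, and its change in cPLA_2_ KO DCs was 0.52 (95% interval −0.27 to 1.31), with an interaction of −1.42 that was not called (adjusted p = 0.0559). *Akap13* rose by 0.80 and 0.45 (interaction −0.35, adjusted p = 0.0113), and *Akap1* fell by 0.89 and 0.64. Same-total scaling moved the median interaction of all genes from 0.05 to 0.24, which makes the negative *Akap13* interaction smaller in size. Of 9 further genes of the CREB family, its coactivators and the salt-inducible kinases that restrain them, 4 rose with confinement in wild-type and 8 in knockout DCs, whereas under same-total scaling 3 rose and 1 fell in the first and 7 rose in the second. The coactivator *Crtc2* rose by 0.84 and 0.19 (interaction −0.65, adjusted p = 1.84e-07) and *Crtc3* by 0.41 and 0.48 (interaction 0.07, 95% interval −0.08 to 0.22). *Sik3*, one of the kinases, rose by 0.80 in cPLA_2_ WT DCs and changed by 0.10 (95% interval −0.05 to 0.25) in cPLA_2_ KO DCs, with an interaction of −0.70 (adjusted p = 1.14e-05).

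Genes known to carry CREs were listed too, and 10 were tested. In both genotypes 9 rose with confinement and 1, *Rgs2*, a regulator of G-protein signalling, fell. The median change was 2.77 in wild-type and 1.13 in knockout DCs. Of all genes, 28.2% rose and 28.4% fell in wild-type DCs, and 22.8% and 23.4% in knockout DCs. The interaction was called for 7, all negative, beside 10.2% positive and 15.6% negative of all genes. Its median over the 10 genes was −1.53. Same-total scaling moved the median interaction of all genes from 0.05 to 0.24. With LPS 8 rose and 2 fell, beside 37.2% and 34.3% of all genes, with a median of 1.41, and *Odc1* turned under same-total scaling. Summed over the list, confined libraries held 57971, 54614 and 56255 in cPLA_2_ WT and 21522, 20824 and 21707 in cPLA_2_ KO DCs. Nonconfined libraries held 13527 to 14375 and LPS libraries 21080 to 23440. Of these sums, *Odc1* alone held 31480.6 to 33980.1 in confined cPLA_2_ WT and 8334.5 to 9206 in confined cPLA_2_ KO libraries.

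*Areg*, which encodes the growth factor amphiregulin, was nearly absent from nonconfined libraries, at 2.29, 5.12 and 2.95 in cPLA_2_ WT and 0.783, 3.72 and 0.971 in cPLA_2_ KO DCs. With confinement it was at 2726, 2674.5 and 2651 in cPLA_2_ WT and 268, 283 and 213 in cPLA_2_ KO libraries, and it lay between 107 and 159 with LPS. All confined and LPS libraries were thus above all nonconfined ones, and the confined cPLA_2_ WT libraries were the highest. The interaction was −2.65 on the log2 scale (adjusted p = 4.51e-05).

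*Dusp1*, a phosphatase of mitogen-activated protein kinases, was at 277, 246 and 287 in nonconfined and 4199, 3940.2 and 3953 in confined cPLA_2_ WT libraries, and at 347, 343.5 and 309 in nonconfined and 749, 840.3 and 819 in confined cPLA_2_ KO libraries. *Dusp1* rose 14.9-fold in cPLA_2_ WT DCs (log2 change 3.90, SE 0.08, adjusted p = 3.20e-20) and 2.41-fold in cPLA_2_ KO DCs, with an interaction of −2.63 (adjusted p = 3.35e-14) and no overlap between the 4 groups. The nuclear receptor gene *Nr4a2* was at 848, 793 and 836 in confined cPLA_2_ WT and 365, 337 and 359 in confined cPLA_2_ KO libraries and between 74.7 and 119 in nonconfined ones. It rose 10.0-fold in cPLA_2_ WT (log2 change 3.32, adjusted p = 2.33e-14) and 3.27-fold in cPLA_2_ KO DCs, with an interaction of −1.62 (adjusted p = 2.62e-06). With LPS *Dusp1* rose 7.70-fold and *Nr4a2* rose by 1.91 on the log2 scale.

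**Figure D3:**
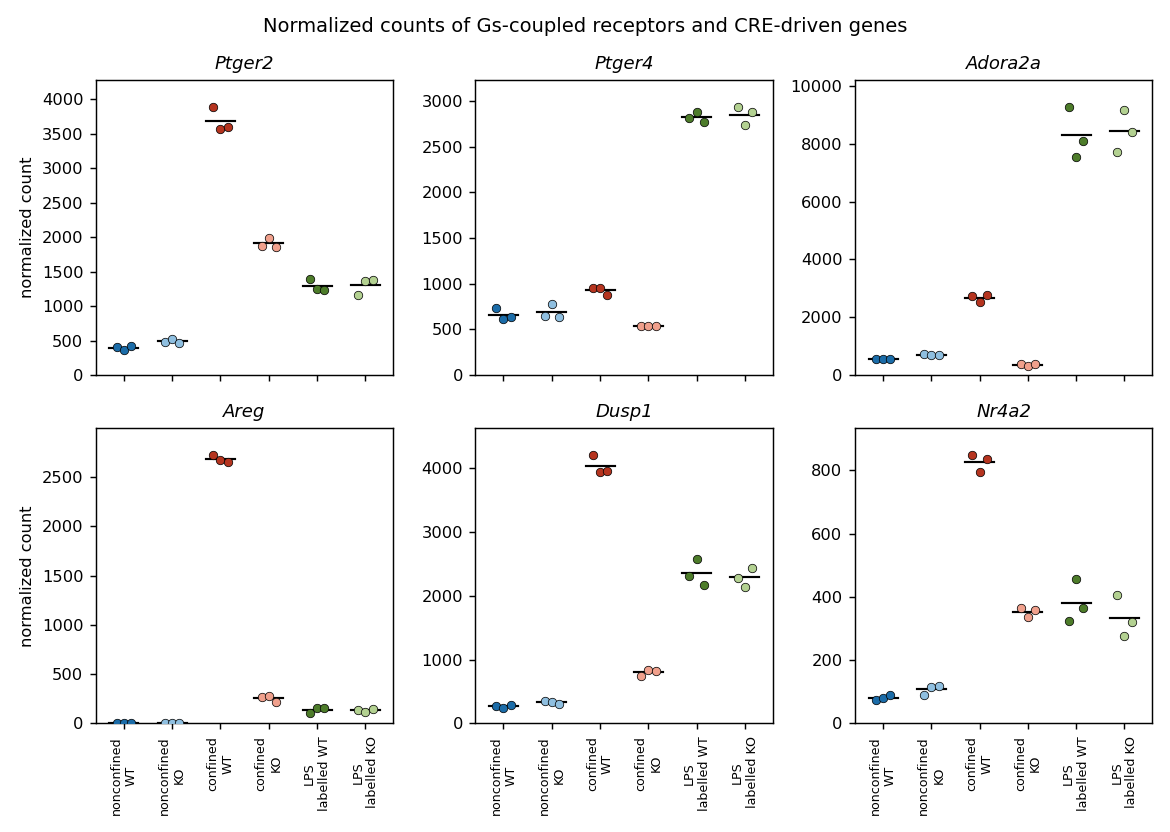
Normalized counts (linear axes from 0) of the receptor genes *Ptger2*, *Ptger4* and *Adora2a* and the CRE-driven genes *Areg*, *Dusp1* and *Nr4a2* in each of the 18 libraries, 1 panel per gene; points are libraries and bars are means of 3. Confined cPLA_2_ WT libraries are the highest for *Ptger2*, *Areg*, *Dusp1* and *Nr4a2*, and LPS libraries are the highest for *Ptger4* and *Adora2a*.

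Across the 18 libraries the members fell into sets that varied together. Over log2 values, Pearson's r was 0.96 between *Pde4d* and *Crem*, 0.96 between *Pde4b* and *Prkar1a*, 0.92 between *Pde4b* and *Creb1*, 0.96 between *Adcy7* and *Adcy9* and 0.95 between *Adcy7* and *Prkaca*. It was −0.88 between *Pde4a* and *Pde4b* and 0.08 between *Crem* and *Prkaca*. These r describe 6 groups of 3 libraries and are set mainly by the group means, so they carry no p.

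Among 10554 tested genes with a symbol and a mean of at least 100 normalized counts, those with the highest r to each member over the 18 libraries were the following. For the cyclases they were *Tinagl1* (0.941), *Gpr137b-ps* and *Creg1* for *Adcy3*, *Dnmt1* (0.994), *Manba* and *Myo7a* for *Adcy7*, and *E230016K23Rik* (0.969), *Trp53inp1* and *Sgsm3* for *Adcy9*. For the phosphodiesterases they were *Fam117a* (0.936), *Wdr3* and *Yeats2* for *Pde4a*, *Rab8b* (0.998), *Rabgef1* and *Map4k4* for *Pde4b*, and *Adssl1* (0.980), *Ctsl* and *Ivd* for *Pde4d*. For the PKA subunits they were *Fads1* (0.980), *Oxct1* and *Ankrd63* for *Prkaca* and *M6pr* (0.988), *Tnfrsf9* and *Cxcl1* for *Prkar1a*. For the transcription factors they were *Osbpl9* (0.992), *Wnt11* and *Il1r2* for *Crem* and *Fbxw11* (0.989), *Trip10* and *Tbl1x* for *Creb1*.

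Promoters were searched for the consensus CRE, TGACGTCA, and for TGACG, which is part of it, on both strands of 300 bases per promoter, from 250 before to 50 after the start of a transcript (RefSeq sequences, table build GRCm38.p6). Of 32851 promoters, 1.79% held TGACGTCA and 20.8% TGACG. The members had 23 promoters for 9 of 10 genes, with no entry for *Crem*. TGACGTCA was in 2 overlapping promoters of 1 member, *Prkar1a*, and TGACG in 8 promoters of 6 members. Of these 6, *Pde4b* and *Prkar1a* rose with confinement in cPLA_2_ WT DCs, and *Adcy7*, *Adcy9*, *Pde4a* and *Prkaca* fell. *Adcy3*, *Pde4d* and *Creb1*, which rose, held neither sequence. Of 11 promoters of the 10 CRE-driven genes, 2 held TGACGTCA (*Areg* and *Dusp1*) and 11 TGACG. A match describes the letters of the window only.

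Shown are the windows with the full CRE of *Prkar1a*, *Areg* and *Dusp1* and the *Pde4b* window with TGACG. They were picked for their match and because these genes rose with confinement. The *Pde4b* window is the only 1 of its 4 promoters with TGACG. The *Prkar1a* window is 1 of 2 with the full CRE among 6 promoters. Each window is written 5′ to 3′ on the strand of its gene, with matches in capitals, where CGTCA is TGACG on the other strand. Each was placed by its exact match in GRCm39. *Prkar1a* is at chr11:109541438-109541737 (plus strand), *Pde4b* at chr4:102278502-102278801 (plus strand), *Areg* at chr5:91287208-91287507 (plus strand) and *Dusp1* at chr17:26727397-26727696 (minus strand). The full CRE begins 38 bases after the transcript start in *Prkar1a*, 61 before it in *Areg* and 143 before it in *Dusp1*.
Prkar1a: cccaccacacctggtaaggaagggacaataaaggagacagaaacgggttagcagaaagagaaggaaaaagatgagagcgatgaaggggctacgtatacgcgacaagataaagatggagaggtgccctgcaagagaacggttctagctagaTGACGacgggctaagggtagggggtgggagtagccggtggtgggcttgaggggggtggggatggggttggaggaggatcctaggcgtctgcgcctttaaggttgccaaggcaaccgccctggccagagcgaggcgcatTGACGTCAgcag
Pde4b: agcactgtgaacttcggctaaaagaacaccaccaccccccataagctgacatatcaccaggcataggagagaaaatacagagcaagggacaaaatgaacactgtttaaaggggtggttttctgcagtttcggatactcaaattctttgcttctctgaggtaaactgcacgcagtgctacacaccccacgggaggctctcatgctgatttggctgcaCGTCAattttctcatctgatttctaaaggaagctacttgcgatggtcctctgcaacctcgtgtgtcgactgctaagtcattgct
Areg: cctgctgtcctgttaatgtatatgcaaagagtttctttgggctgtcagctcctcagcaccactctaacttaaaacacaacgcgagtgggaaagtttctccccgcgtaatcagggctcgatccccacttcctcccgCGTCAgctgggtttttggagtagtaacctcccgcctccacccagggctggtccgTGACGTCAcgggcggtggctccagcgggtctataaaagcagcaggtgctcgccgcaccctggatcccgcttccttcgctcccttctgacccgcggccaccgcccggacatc
Dusp1: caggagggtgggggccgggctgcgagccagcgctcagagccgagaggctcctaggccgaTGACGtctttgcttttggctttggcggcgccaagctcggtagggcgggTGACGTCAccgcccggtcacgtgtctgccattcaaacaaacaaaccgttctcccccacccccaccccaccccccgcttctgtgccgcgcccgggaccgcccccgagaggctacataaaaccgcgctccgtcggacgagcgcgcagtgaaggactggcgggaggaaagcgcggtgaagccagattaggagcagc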

How the data were processed

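Poly(A) RNA of 18 libraries in 6 groups of 3 was sequenced in the study. The values are signal in the form of normalized counts: per the study's methods and as deposited by the authors, reads were aligned to GRCm39 (mm39) with STAR 2.7.5a, counted per gene with featureCounts 1.5.0 on a FAST DB annotation and divided by DESeq2 size factors in R 3.5.3. Which library was made with which of 2 kits is not known.

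Whole reads were recovered for 100% of values (tolerance 0.001) and used for depth, edgeR 4.0.16 and DESeq2 1.42.0, which called 10102 and 10267 genes for confinement in cPLA_2_ WT DCs. The model of the report was fitted with limma 3.58.1 in R 4.3.3 to log2(normalized count + 1) with a mean per group, a trend in the variance and Benjamini-Hochberg adjustment over 17875 genes, which called 10113. It was tested on simulated data. Tables and figures used Python 3.11.15, pandas 2.3.3 and matplotlib 3.10.9. Gene coordinates are those of the table.

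The members and lists were chosen with earlier results of these data known. Named genes are the members, *Pla2g4a*, *Ptger2*, *Ptger4*, up to 3 genes per pathway list with the largest change with confinement in cPLA_2_ WT DCs and a mean of at least 100 in 1 group, and the 3 genes of highest r to each member. Marker genes and others named as exceptions were chosen after their values were seen. The interaction subtracts the change by which the pathway genes were picked, which favours interactions of the opposite sign among them.

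Alternatives were other pseudocounts, filters, scalings (the same total per library, TMM), count tools, thresholds, fits of the compared groups alone, a replicate block and leaving out each library. The alternatives without the 3 LPS libraries whose *Ddx3y* goes against their label, and without these and 1 more labelled cPLA_2_ KO that is below the nonconfined range of its label, were chosen after seeing the data.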

Additional observations from a re-analysis of the deposited data

Results flagged for a closer look

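The change with confinement differed between the genotypes, by a test of the interaction (log2, cPLA_2_ KO minus cPLA_2_ WT), in 7 members: *Adcy7* 0.70, *Adcy9* 0.83, *Pde4a* 0.57, *Pde4b* −1.89, *Prkar1a* −0.18, *Crem* −1.47 and *Creb1* −0.28. The calls of *Adcy9*, *Pde4a*, *Prkar1a* and *Creb1* were lost on leaving out single libraries that the report names. Under same-total scaling *Prkar1a* turned to 0.01 and *Creb1* shrank to −0.09 (adjusted p = 0.530). The calls of *Prkar1a* and *Creb1* were also lost under TMM scaling and with a replicate block. Among the other named pathway genes the change with confinement differed for *Ptger2* (−1.25), *Ptger4* (−0.84), *Adora2a* (−3.25), *Pkib* (−0.69), *Rap1b* (−0.61), *Akap13* (−0.35, smaller in size under same-total scaling), *Crtc2* (−0.65), *Sik3* (−0.70), *Areg* (−2.65), *Dusp1* (−2.63) and *Nr4a2* (−1.62). Genotype and the sex of the donors cannot be told apart in these values, which use no LPS library. Apart from *Ptger2* and *Ptger4*, the other named pathway genes were picked by the size of their change with confinement in cPLA_2_ WT DCs. The interaction subtracts that same change, so the choice favours interactions of the opposite sign. Of all 61 pathway genes tested, 3 had a positive and 18 a negative interaction, and 16 and 16 under same-total scaling.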

How the results depend on the processing

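Of the single-gene values under alternatives, 1290 kept their direction and side of the threshold, 108 lost and 25 gained a call, and 27 changed sign. P-values measure spread between libraries that the labels tie to no animal, and *Adcy3* rests on 22 to 180 reads per library.

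Counts of members called, with a fold of 1.5 and unadjusted p (share of all genes): confinement in cPLA_2_ WT DCs 5 (34.5%), interaction 4 (16.5%), genotypes confined 4 (19.4%), LPS labelled cPLA_2_ KO 5 (43.9%), LPS pooled 5 (46.1%) and confined cPLA_2_ WT against LPS 4 (27.8%). With a log2 change above 1 they were 4 for confinement in wild-type (19.0%) and 3 in knockout DCs (12.0%), 2 for the interaction (7.67%), 0 and 3 for the genotypes nonconfined (1.15%) and confined (10.1%), 3 for LPS under either label (27.4% and 27.9%) and pooled (29.0%), and 2 for confined cPLA_2_ WT against LPS (14.8%); the stricter threshold itself lowers these counts. For the genotypes nonconfined the count was 0 with no filter and with the compared groups alone, and 2 with a filter at 100, the same total or DESeq2. On leaving out 1 library it was 0 to 2 there, and 4 to 6 for the interaction. The 0 came without nonconfined cPLA_2_ WT replicate 1 or 3 or cPLA_2_ KO replicate 1 or 3, and the 2 without cPLA_2_ KO replicate 2. Of the 17875 genes, the main fit called 1588 (8.88%) between the genotypes nonconfined, and DESeq2 called 2038. For the interaction the main fit called 4619. Shares of all genes are not given for the other settings or the left-out libraries, so those counts have no background beside them.

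With a common total for the libraries, the share of calls that were higher went from 49.8% to 32.6% for confinement in cPLA_2_ WT DCs, 49.3% to 44.5% in cPLA_2_ KO DCs, 39.5% to 70.7% for the interaction, 53.8% to 42.0% and 47.7% to 69.8% for the genotypes nonconfined and confined, 52.0% to 26.0% for LPS pooled (53.1% to 25.3% and 52.6% to 26.0% by label) and 45.2% to 75.2% for confined cPLA_2_ WT against LPS. Changes of sign under this scaling were *Prkar1a* interaction 0.0128; genotypes nonconfined *Pde4d* −0.008 and *Prkar1a* −0.0301; LPS pooled *Adcy3* −0.1215, *Pde4d* −0.4782 and *Crem* −0.0681; and confined cPLA_2_ WT against LPS *Pde4a* 0.073, *Pde4b* 0.2307, *Prkar1a* 0.1578 and *Creb1* 0.0309.

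Other changes of sign were *Prkar1a* between genotypes nonconfined with TMM (−0.002), *Pde4b* for confined cPLA_2_ WT against LPS with edgeR (0.0141) and *Pde4d* with LPS pooled under TMM (−0.054), edgeR (−0.0294), DESeq2 (−0.01) and without the 4 LPS libraries whose *Ddx3y* is outside the nonconfined range of their label, towards the other genotype (−0.0059). On leaving out 1 library, *Pde4d* between genotypes nonconfined ranged from −0.0776 to 0.1018, *Prkar1a* there from −0.0227 to 0.0235 and *Pde4d* with LPS pooled from −0.042 to 0.0801. The cause was not tested.

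A replicate block left 5 members called for the interaction, and 4426 of the 17875 genes tested. Without the block 4619 of all genes were called. Residual correlations of equal replicate numbers ranged from −0.142 to 0.338. No 2 groups had all 3 above 0.1, so the numbers were not taken as pairs. Between confined cPLA_2_ WT and confined cPLA_2_ KO libraries, replicates 1 and 2 were at 0.338 and 0.208 and replicate 3 at 0.04.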
